A study of Mus musculus with 8 samples.

Results

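Genes of the actin cytoskeleton and of cell motility were read out of a CEL-Seq survey of sorted mouse eosinophils. The set was a fixed list of 55 gene symbols, matched through Ensembl identifiers and sorted here by textbook role into 11 groups: actins, monomer binders, the Arp2/3 complex, its activators, formins with Ena/VASP proteins, severing and turnover factors, barbed-end cappers, bundlers and cross-linkers, tropomyosins, myosins, and membrane and adhesion linkers. All 55 symbols matched a row among the 54446 gene rows of the files, 54 had counts in at least 1 library, and the same 54 passed the filter on low counts and were among the 11828 genes tested. The member without counts was Myl12a, a myosin regulatory light chain gene that lies beside Myl12b.

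The 8 libraries came from eosinophils of C57BL/6 mice in a study of a murine asthma model, sequenced by CEL-Seq, which amplifies RNA linearly and reads the 3' ends of transcripts. Their titles give 3 groups. Resident eosinophils have 4 libraries (replicates 3 to 6), and the subsets called Siglec-Fint/CD101- and SiglecFhi/CD101+ have 2 libraries each. The subsets were told apart by 2 surface proteins, the lectin Siglec-F and CD101, a member of the immunoglobulin family. The labels name no treatment, time, age, sex, tissue or animal for any sample, so an effect of treatment and one of group cannot be told apart. Nothing in the labels says that the libraries came from separate animals, and p-values therefore measure the spread between these libraries, which may be technical.

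Actin monomers are held in a soluble pool by small binding proteins and are added to the barbed ends of filaments. The Arp2/3 complex starts branches from existing filaments after activation by WASP-family proteins, whereas formins and Ena/VASP proteins extend unbranched filaments; cofilin and coronins turn filaments over, cappers stop their growth, cross-linkers bundle them and myosins pull on them. Eosinophils, like other granulocytes, crawl through tissue by this cycle of assembly at the front and contraction at the rear.

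The libraries were of unequal depth. Outside the mitochondrial genome, each resident library held 2137819 to 5296468 counts and each of the 4 subset libraries 444902 to 552121, and mitochondrial genes took 38.6% to 61.8% of the counts in resident libraries against 69.9% to 83.9% in subset libraries. The defining eosinophil markers were only partly detected. Of 10 marker genes, Prg3 had no counts in any of the 8 libraries, Epx (eosinophil peroxidase) had none in 7 and Il5ra, the IL-5 receptor chain, none in 6. Prg2 and Ear2, granule protein genes, had counts in all 8, as did Alox15. Prg2, however, had only 1 and 3 counts in the Siglec-Fint/CD101- libraries, against 73 and 385 in the SiglecFhi/CD101+ libraries. Ear6 had none in 6 libraries, Ccr3 none in 4 and Ear1 none in 1. Siglecf, the gene of Siglec-F, had none in either Siglec-Fint/CD101- library. In whole sorted samples, fewer cells of a type and less RNA per cell cannot be told apart. All values below are those of the labelled groups.

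In every group the 54 genes made up a few per cent of the RNA counted outside the mitochondrial genome. Their share was 3.81%, 3.86%, 2.96% and 3.56% in the resident libraries, 4.07% and 2.95% in the Siglec-Fint/CD101- pair, and 2.54% and 2.57% in the SiglecFhi/CD101+ libraries. Both SiglecFhi/CD101+ libraries thus lay below all others, while 1 Siglec-Fint/CD101- library lay above the whole resident range and the other just below it. Without Actb, the gene with the most member counts in every library, the share was 2.28% to 2.94% in resident libraries, 2.72% and 2.35% in Siglec-Fint/CD101- libraries, and 2.02% and 2.101% in SiglecFhi/CD101+ libraries. Between 53 and 54 members were detected per resident library, 49 and 53 in the Siglec-Fint/CD101- pair, and 49 and 50 in the SiglecFhi/CD101+ libraries. At an equal depth of 444902 counts outside the mitochondrial genome the expected numbers were 53.0 to 53.99, 49.0 and 52.8, and 48.8 and 50.

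**Figure D1:**
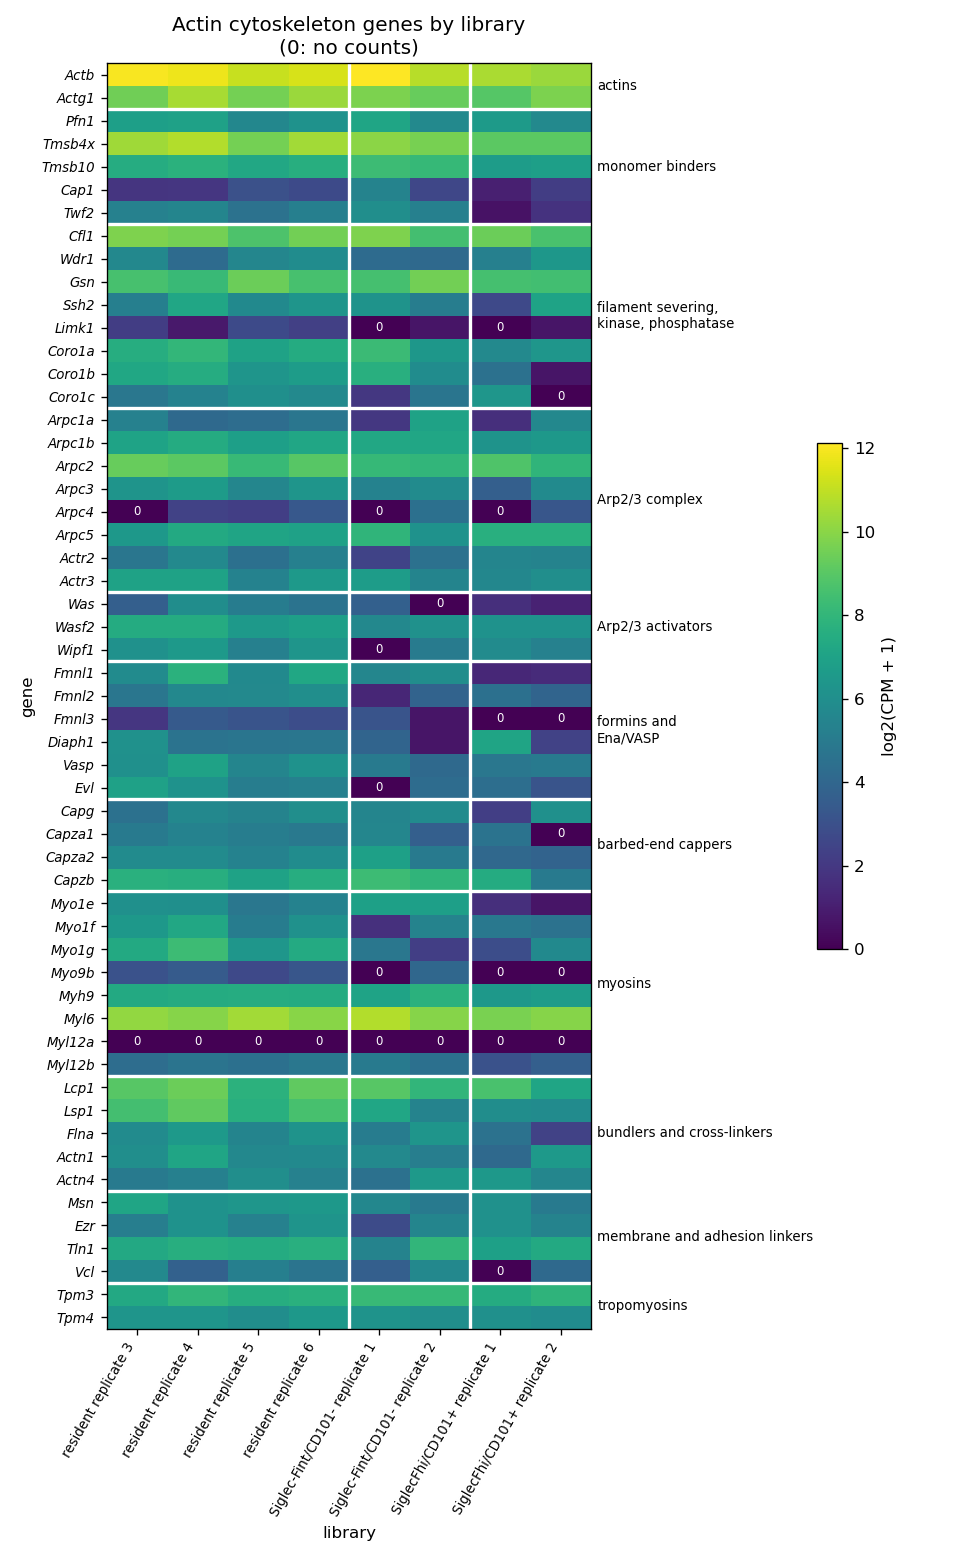
Level of the 55 genes (rows, grouped by role) in the 8 libraries (columns), as log2 of CPM plus 1, with colour from dark (0) to yellow (high). A white 0 marks a gene without counts in that library; Myl12a has none in any library, and Fmnl3 and Myo9b have none in either SiglecFhi/CD101+ library.

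No member passed the test in any of the 4 comparisons by edgeR's quasi-likelihood test, with the Benjamini-Hochberg adjustment over all 11828 genes and a threshold of 0.05. Few genes of any kind did: 0.0254% of genes tested between SiglecFhi/CD101+ and resident libraries, 0.0592% between Siglec-Fint/CD101- and resident libraries, 0.0254% between the average of both subsets and resident libraries, and 0.00845% between the subsets. limma-voom also called 0 members in each comparison, beside 0.0169%, 0.0169%, 0.0423% and 0% of genes in the same order. Unadjusted p-values under 0.05 and DESeq2, a second count model, gave more, and every member they picked was lower in the group named first.

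Between SiglecFhi/CD101+ and resident libraries, the leading members by p were Fmnl1, a leukocyte formin, Myo1e, a membrane-bound class I myosin, Lsp1, an actin-binding protein of leukocytes, and Twf2, a twinfilin that binds monomers. By unadjusted p, 13 of 54 members were lower, beside 13.1% of all genes, and 0 were higher. DESeq2 called 4 members lower, beside 5.31% of genes, and 0 higher: Fmnl1, Lsp1, Myo1e and Twf2. In 26 members every SiglecFhi/CD101+ value lay below every resident value (27.4% of genes), and in 1, Arpc5, every value lay above (6.78% of genes). The median log2 fold change of the members was -0.87, and 46 of 54 were below 0, beside a median of -0.72 over all genes tested. Fmnl3 and Myo9b, which had no counts in this subset, sat far below both medians. How far below they lay does not affect the -0.87.

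Between Siglec-Fint/CD101- and resident libraries, the leading members were Myo1g, a haematopoietic class I myosin, Lsp1 and Fmnl2, another formin. These were the 3 members lower by unadjusted p, beside 13.8% of genes, and 0 were higher. DESeq2 called 1 member lower, Myo1g, beside 5.31% of genes, and 0 higher. In 12 members both Siglec-Fint/CD101- values lay below every resident value (29.3% of genes), and in 4, Capzb, Myo1e, Tmsb10 and Tpm3, both lay above (4.46% of genes); with RLE factors 7 members did so (6.62% of genes) and with library totals 0 (1.12%). The median of the members was -0.27, with 34 of 54 below 0, beside -0.997 over all genes.

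With both subsets averaged against the same resident libraries, 15 members were lower by unadjusted p, beside 21% of genes, and DESeq2 called 3, Fmnl1, Lsp1 and Myo1g, beside 6.85% of genes; neither had a member that was higher. In 8 members, Evl, Fmnl2, Limk1, Lsp1, Msn, Myo1g, Vasp and Wasf2, all 4 subset values lay below every resident value (12% of genes), and in 0 above (0.702% of genes). For Limk1 the subset libraries held only 0, 1, 0 and 1 counts. Its lowest resident value, 0.786 CPM, lay below what 3 counts equal in a subset library (1.59 to 2.18 CPM). The median was -0.67, with 47 of 54 below 0, beside -1.28 over all genes. The 3 comparisons with resident libraries share those 4 libraries and are not independent of each other.

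Directly between the subsets, 10 members were lower in SiglecFhi/CD101+ libraries by unadjusted p, beside 7.96% of genes, and 0 were higher. DESeq2 called 4 lower, Coro1b, Fmnl1, Myo1e and Twf2, beside 4.88% of genes, and 0 higher. In 18 members both SiglecFhi/CD101+ values lay below both Siglec-Fint/CD101- values (11.9% of genes), and in 5, Actr2, Fmnl2, Wasf2, Wdr1 and Wipf1, both lay above (15.8% of genes). The median was -0.52, with 36 of 54 below 0, beside 0 over all genes.

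Of the 54 members, 50 lay above the median level of genes tested. Over the 5914 genes above that level, the medians were -0.41, -0.35, -0.60 and -0.08 in the order of the comparisons above, so beside these genes the members were lower in 3 comparisons and higher in Siglec-Fint/CD101- against resident libraries. Another scaling moved all genes together. With RLE factors the median of all genes was -0.26, -0.63, -0.88 and 0.05, and that of the members -0.41, 0.10, -0.24 and -0.42. With library totals alone, the medians were -1.46, -1.96, -2.09 and 0.20 over all genes and -1.55, -1.20, -1.35 and -0.27 over the members. Relative to all genes tested, the members were therefore lower in both comparisons that set SiglecFhi/CD101+ first and higher in the other 2 under each of these 3 scalings. In SiglecFhi/CD101+ against resident libraries that order was not stable under other settings: without a filter on low counts the medians were -0.93 over the members and -1.02 over all genes, without Siglec-Fint/CD101- replicate 1 or 2 they were -0.98 and -0.99, without SiglecFhi/CD101+ replicate 1 they were -1.06 and -3.15, and without its replicate 2 they were -1.24 and -2.12. No log2 fold change of a member with an error named below turned its sign under any of them. Fold changes of genes that are no members were not tried under these settings. Statements below on whether groups overlap hold for CPM scaled by TMM factors.

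**Figure D2:**
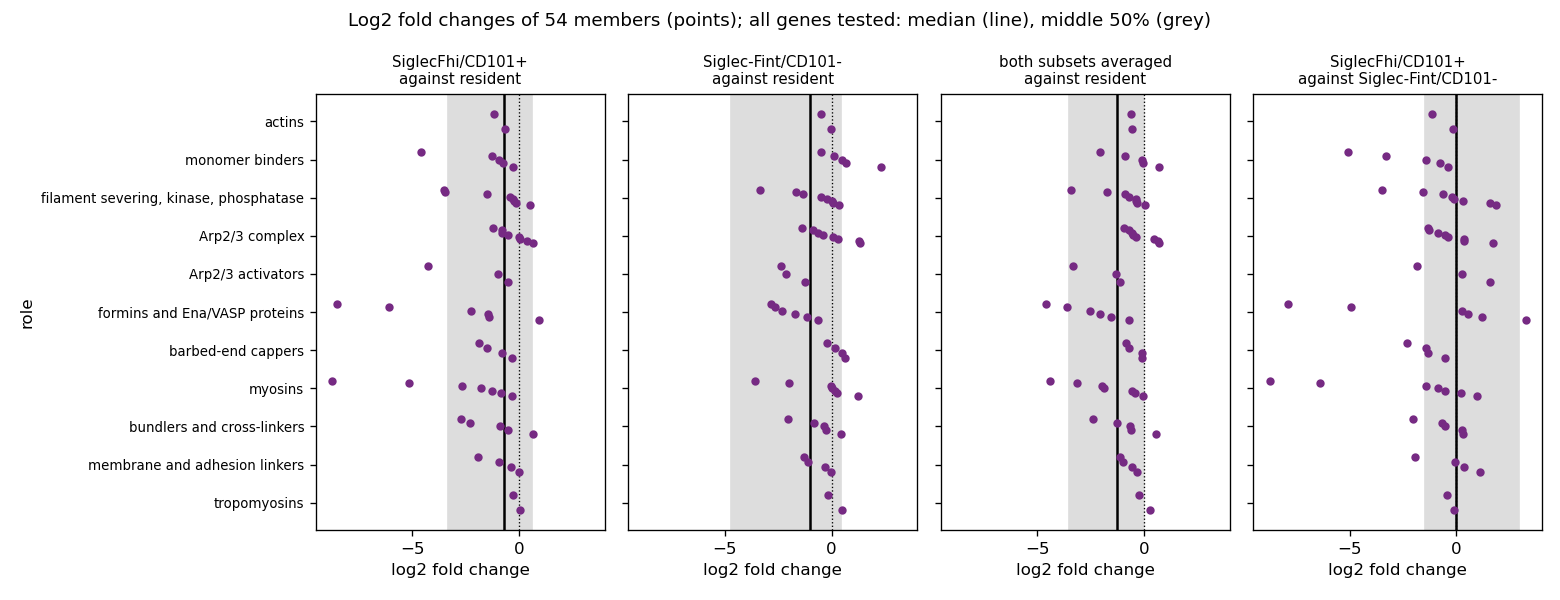
Log2 fold changes (horizontal axis, from TMM-scaled counts) of the 54 tested members by role (vertical axis) in the 4 comparisons, with the median of all 11828 genes as a line, their middle 50% in grey and 0 dotted. The member median is -0.87, -0.27, -0.67 and -0.52 from left to right. Formins and myosins hold the points farthest to the left, except in Siglec-Fint/CD101- against resident libraries. There a severing and turnover gene (-3.37) lies left of every formin (lowest -2.81). Fmnl3 and Myo9b have no counts in SiglecFhi/CD101+ libraries, so how far left they lie is not measured in any panel with those libraries. Apart from them, a severing and turnover gene (-3.43) lies left of every myosin in the averaged panel. Between the subsets, a monomer binder (-5.07) lies left of every formin other than Fmnl3.

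Actins are the filaments themselves. Actb, the gene of beta-actin (chr5:142903115-142906754 in the GENCODE annotation on GRCm38), had 24887, 45826, 31322 and 40872 counts in resident replicates 3 to 6, 6172 and 2887 in the Siglec-Fint/CD101- pair, and 2911 and 2103 in the SiglecFhi/CD101+ libraries. As CPM, the counts relative to the TMM-scaled library size, these were 4159, 3603, 2196 and 2718, then 4487 and 1793, then 1543 and 1282. Both SiglecFhi/CD101+ values lay below all 6 others, and the 2 Siglec-Fint/CD101- libraries differed from each other more than the resident libraries did. The log2 fold change of Actb was -1.17 ± 0.40 (SE, edgeR adjusted p = 0.221) in SiglecFhi/CD101+ against resident libraries and -1.15 ± 0.45 (SE, edgeR adjusted p = 0.243) against Siglec-Fint/CD101- libraries, and neither passed. The latter was -0.39 without Siglec-Fint/CD101- replicate 1 and -1.75 without replicate 2. Actg1, the gamma-actin gene, had 4328, 18705, 10980 and 19248 counts in resident libraries, 1166 and 1031 in Siglec-Fint/CD101- libraries and 934 and 1401 in SiglecFhi/CD101+ libraries, or 723, 1470.5, 769.8 and 1279.9, 848 and 640.1, and 495 and 854 CPM, and the groups overlapped.

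Monomer binders hold or recycle actin subunits. Tmsb4x, thymosin beta-4, which sequesters monomers, had 8047, 21458, 11016 and 20996 counts in resident libraries, 1437 and 1276 in Siglec-Fint/CD101- libraries, and 1013 and 893 in SiglecFhi/CD101+ libraries, or 1345, 1687, 772 and 1396, 1045 and 792, and 537 and 545 CPM. The SiglecFhi/CD101+ pair was lowest and the others overlapped; the log2 fold change was -1.27 ± 0.39 (SE, edgeR adjusted p = 0.187) in SiglecFhi/CD101+ against resident libraries and -0.88 ± 0.30 (SE, edgeR adjusted p = 0.134) for the average of the subsets. Tmsb10, thymosin beta-10, stood apart in both directions, at 183, 217, 151 and 191 CPM in resident libraries (1098, 2764, 2159 and 2872 counts), 313 and 276 in Siglec-Fint/CD101- libraries (431 and 444 counts) and 103 and 115 in SiglecFhi/CD101+ libraries (195 and 188 counts). No 2 groups overlapped, with Siglec-Fint/CD101- highest and SiglecFhi/CD101+ lowest, and the log2 fold change between the subsets was -1.43 ± 0.54 (SE, edgeR adjusted p = 0.242).

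Twf2 (chr9:106203108-106215389) was nearly absent from one subset. It had 237, 563, 321 and 556 counts in resident libraries, 85 and 61 in Siglec-Fint/CD101- libraries and 1 and 4 in SiglecFhi/CD101+ libraries, that is 39.6, 44.3, 22.5 and 37.0, 61.8 and 37.9, and 0.53 and 2.44 CPM. The SiglecFhi/CD101+ values lay far below all others, which overlapped among themselves. Summed over each group, the resident level was 24.6 times the SiglecFhi/CD101+ level (1677 against 5 counts, 95% counting interval 10.5 to 76.0) and the Siglec-Fint/CD101- level 34.5 times (146 against 5 counts, 14.4 to 108). The log2 fold change was -4.60 ± 1.27 (SE, edgeR adjusted p = 0.149) against resident and -5.07 ± 1.35 (SE, edgeR adjusted p = 0.201) against Siglec-Fint/CD101- libraries, and -2.06 ± 0.83 (SE, edgeR adjusted p = 0.17) for the averaged subsets. DESeq2 gave adjusted p = 0.000761 and 0.000182 for the first and second of these, where all alternatives ran from 0.000761 to 0.394 and from 0.000182 to 1. Counting intervals here and below cover counting error only, since copies of one molecule may have been counted more than once.

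Pfn1, profilin, which delivers monomers to growing ends, overlapped between all groups at 113, 122, 48.1 and 70.6 CPM in resident libraries (675, 1546, 686 and 1062 counts), 141 and 50.9 in Siglec-Fint/CD101- libraries (194 and 82 counts) and 96.5 and 50.6 in SiglecFhi/CD101+ libraries (182 and 83 counts). Cap1, a cyclase-associated protein that recycles cofilin-bound actin, had 41.4 CPM in 1 Siglec-Fint/CD101- library and at most 7.08 in any other, from 16, 36, 101 and 86 counts in resident libraries, 57 and 8 in Siglec-Fint/CD101- libraries and 2 and 6 in SiglecFhi/CD101+ libraries.

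The Arp2/3 complex had 8 tested members, and in 5 of them both subsets overlapped the resident libraries. Arpc1b, the haematopoietic form of its p40 subunit, had 780, 2267, 1606 and 2150 counts in resident libraries, 215 and 231 in Siglec-Fint/CD101- libraries and 142 and 143 in SiglecFhi/CD101+ libraries, or 130.3, 178, 113 and 143, 156 and 143, and 75.3 and 87.2 CPM. Only the SiglecFhi/CD101+ pair lay below the rest. Arpc2, a structural core subunit, had 630.4, 543, 291 and 500 CPM in resident libraries (3772, 6905, 4149 and 7519 counts), 281 and 249 in Siglec-Fint/CD101- libraries (387 and 401 counts) and 438 and 243 in SiglecFhi/CD101+ libraries (826 and 398 counts), with a log2 fold change of -0.89 ± 0.45 (SE, edgeR adjusted p = 0.335) in Siglec-Fint/CD101- against resident libraries. Arpc5 went the other way in SiglecFhi/CD101+ libraries, at 199 and 200 CPM against 86.9, 162, 135 and 122 in resident libraries, but the Siglec-Fint/CD101- values, 241 and 70.8, spanned both.

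The remaining subunits varied within groups. Arpc3 ranged from 46.7 to 101 CPM in resident libraries and stood at 40.0 and 55.9 in the Siglec-Fint/CD101- pair and 11.7 and 54.3 in the SiglecFhi/CD101+ pair. Actr3, one of the actin-related subunits, ranged from 40.8 to 126 CPM in resident libraries and was 103 and 43.5 and then 47.7 and 63.4 in the subsets. Actr2, the other, was 45.6 and 42.7 CPM in SiglecFhi/CD101+ libraries, within the resident range of 21.5 to 51.3, and 4.36 and 22.4 in Siglec-Fint/CD101- libraries. Arpc4 had at most 136 counts in a library and none in 3 of them.

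Activators of the complex were 3 genes, and none passed in any comparison. Wasf2, a WAVE protein that activates Arp2/3 at the leading edge, had 1068, 2219, 1340 and 1691 counts in resident libraries, 68 and 111 in Siglec-Fint/CD101- libraries and 136 and 117 in SiglecFhi/CD101+ libraries, or 178, 174, 93.9 and 112, 49.4 and 68.9, and 72.1 and 71.4 CPM. All 4 subset values lay below the resident ones, and its log2 fold change was -1.24 ± 0.63 (SE, edgeR adjusted p = 0.335) in Siglec-Fint/CD101- against resident libraries. Was, the Wiskott-Aldrich syndrome protein gene, had 71, 761, 473 and 353 counts in resident libraries but 17 and 0 in the Siglec-Fint/CD101- pair and 4 and 2 in the SiglecFhi/CD101+ pair. The resident level was 20.3 times the SiglecFhi/CD101+ level (1658 against 6 counts, counting interval 9.31 to 55.4), 1 Siglec-Fint/CD101- library lay within the resident range, and the log2 fold change of the averaged subsets was -3.31 ± 1.25 (SE, edgeR adjusted p = 0.156). Wipf1, which binds and stabilises WASP, had 69.2, 89.5, 38.3 and 78.5 CPM in resident libraries (414, 1138, 547 and 1180 counts), 0 and 31.7 in Siglec-Fint/CD101- libraries (0 and 51 counts) and 56.2 and 39.6 in SiglecFhi/CD101+ libraries (106 and 65 counts), with -2.11 ± 1.23 (SE, edgeR adjusted p = 0.377) in the former against resident libraries.

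Formins and Ena/VASP proteins include Fmnl1, the member with the smallest p for SiglecFhi/CD101+ and for the averaged subsets against resident libraries. Fmnl1 (chr11:103171107-103198901, on the plus strand) had 337, 2695, 746 and 2254 counts in resident libraries, 64 and 97 in Siglec-Fint/CD101- libraries and 3 in each SiglecFhi/CD101+ library, or 56.3, 212, 52.3 and 149.9, 46.5 and 60.2, and 1.59 and 1.83 CPM. The SiglecFhi/CD101+ libraries lay far below all others, and the Siglec-Fint/CD101- libraries overlapped the lower resident ones. Summed over groups, the resident level was 73.8 times the SiglecFhi/CD101+ level (6032 against 6 counts, counting interval 33.9 to 201) and the Siglec-Fint/CD101- level 31.7 times (161 against 6 counts, 14.2 to 87.6). The log2 fold change was -6.09 ± 1.08 (SE, edgeR adjusted p = 0.0682) against resident libraries, -4.95 ± 1.07 (SE, edgeR adjusted p = 0.156) between the subsets, and -3.62 ± 0.70 (SE, edgeR adjusted p = 0.0787) for the averaged subsets. DESeq2 adjusted p-values for these were 4.07e-06, 0.000746 and 0.000826, and over all alternatives the adjusted p ran from 4.07e-06 to 0.328, 0.000746 to 1, and 0.000826 to 0.214. Without either Siglec-Fint/CD101- library, edgeR called Fmnl1, Lsp1 and Myo1e lower in the SiglecFhi/CD101+ group against resident libraries, 3 members in place of 0, while the calls over all genes went from 3 of 11828 to 131 of 14968 and 133 of 14962.

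Its relatives did not follow one pattern. Fmnl2 had 158, 641, 724 and 954 counts in resident libraries, 2 and 22 in Siglec-Fint/CD101- libraries and 40 and 23 in SiglecFhi/CD101+ libraries, or 26.4, 50.4, 50.8 and 63.4, 1.45 and 13.7, and 21.2 and 14.0 CPM. Here both subsets lay below the resident libraries and Siglec-Fint/CD101- was lowest, with a log2 fold change of -2.65 ± 1.18 (SE, edgeR adjusted p = 0.31) against resident libraries. Fmnl3 had 17, 124, 114 and 95 counts in resident libraries, 11 and 1 in Siglec-Fint/CD101- libraries and none in the SiglecFhi/CD101+ libraries. With 3 counts set for the whole SiglecFhi/CD101+ group, its resident level was 8.57-fold higher and its Siglec-Fint/CD101- level 4.72-fold higher. From the observed 0 counts, the lower limits of the 95% counting intervals were 6.93-fold and 3.28-fold. The edgeR adjusted p was 0.236 and 0.257, and 0.181 for the averaged subsets. Diaph1, a formin, spread widely within groups, with 416, 296, 355 and 395 counts in resident libraries, 19 and 1 in Siglec-Fint/CD101- libraries and 253 and 7 in SiglecFhi/CD101+ libraries.

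Vasp and Evl, which extend filaments at the leading edge, were lower in all 4 subset libraries than in any resident library. Vasp had 66.2, 128, 45.5 and 72.2 CPM in resident libraries (396, 1626, 649 and 1086 counts), 31.3 and 16.8 in Siglec-Fint/CD101- libraries (43 and 27 counts) and 27.04 and 31.1 in SiglecFhi/CD101+ libraries (51 and 51 counts). Its log2 fold change was -1.56 ± 0.65 (SE, edgeR adjusted p = 0.176) for the averaged subsets and -1.70 ± 0.84 (SE, edgeR adjusted p = 0.33) for Siglec-Fint/CD101- alone. Evl had 121, 70.7, 34.1 and 38.4 CPM in resident libraries (724, 899, 487 and 577 counts), 0 and 18.6 in Siglec-Fint/CD101- libraries (0 and 30 counts) and 19.6 and 7.93 in SiglecFhi/CD101+ libraries (37 and 13 counts), at -2.54 ± 1.01 (SE, edgeR adjusted p = 0.167) averaged and -2.81 ± 1.36 (SE, edgeR adjusted p = 0.326) for Siglec-Fint/CD101- libraries. An exon of Degs2 on the opposite strand reaches the last 500 genomic bases of Evl.

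**Figure D3:**
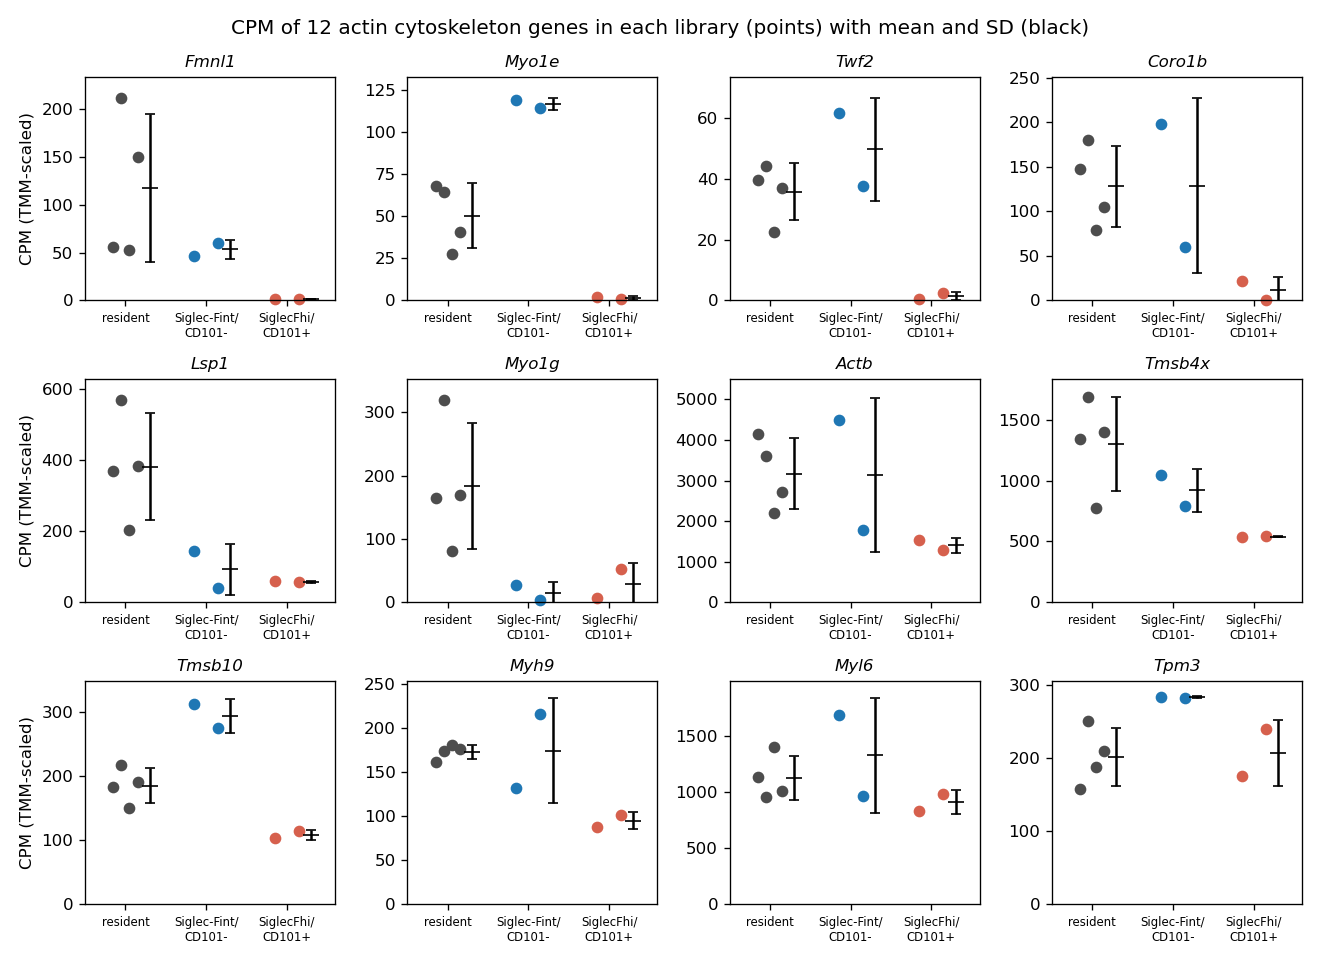
CPM of 12 members in each library (points; grey resident, n = 4; blue Siglec-Fint/CD101-, n = 2; red SiglecFhi/CD101+, n = 2) with the mean and SD of each group in black, the axes starting at 0. Fmnl1, Myo1e and Twf2 lie near 0 in both SiglecFhi/CD101+ libraries and in no other, Lsp1 and Myo1g are low in both subsets, and Tpm3 and Myl6 overlap between resident and SiglecFhi/CD101+ libraries.

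Severing and turnover factors were uneven. Cfl1, cofilin, which severs old filaments, overlapped between all groups at 895, 778, 424 and 758 CPM in resident libraries (5353, 9897, 6046 and 11395 counts), 880.5 and 361 in Siglec-Fint/CD101- libraries (1211 and 582 counts) and 675 and 394 in SiglecFhi/CD101+ libraries (1274 and 646 counts). Coro1a, the leukocyte coronin, had 1123, 3329, 1795 and 2616 counts in resident libraries, 424 and 138 in Siglec-Fint/CD101- libraries and 98 and 134 in SiglecFhi/CD101+ libraries, or 188, 262, 126 and 174, 308 and 85.7, and 52.0 and 81.7 CPM. SiglecFhi/CD101+ was lowest without overlap, though narrowly in its second library, and the log2 fold change between the subsets was -1.56 ± 0.70 (SE, edgeR adjusted p = 0.268). Without Siglec-Fint/CD101- replicate 1 it was -0.40, and over all single libraries left out it ran from -2.29 to -0.40.

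Coro1b, a coronin that acts on Arp2/3 branches, had 883, 2299, 1131 and 1571 counts in resident libraries, 273 and 96 in Siglec-Fint/CD101- libraries and 42 and 1 in SiglecFhi/CD101+ libraries, or 148, 181, 79.3 and 104, 198 and 59.6, and 22.3 and 0.61 CPM. Both SiglecFhi/CD101+ values lay below all others, at -3.47 ± 1.08 (SE, edgeR adjusted p = 0.197) on the log2 scale against resident and -3.49 ± 1.14 (SE, edgeR adjusted p = 0.239) against Siglec-Fint/CD101- libraries; DESeq2 gave adjusted p = 0.0462 for the latter, with a range of 0.0462 to 1 over all alternatives. Exons of Ptprcap on the same strand and Rps6kb2 on the opposite one reach the last 500 genomic bases of Coro1b, so its counts may be split or shared. Coro1c, a more widely expressed coronin, was 26.9, 40.3, 64.01 and 50.6 CPM in resident libraries, 2.91 and 25.5 in the Siglec-Fint/CD101- pair and 83.2 and 0 in the SiglecFhi/CD101+ pair, so the libraries of each subset disagreed.

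Gsn, gelsolin, a calcium-driven severing protein, ranged from 296 to 685 CPM in resident libraries and was 372 and 742 in the Siglec-Fint/CD101- pair and 369 and 346 in the SiglecFhi/CD101+ pair. Wdr1, which aids cofilin, ranged from 18.0 to 59.6 in resident libraries and was 18.2 and 16.8 and then 38.2 and 86.0 in the subsets. Ssh2, a phosphatase that activates cofilin, was 5.30 and 129 CPM in the SiglecFhi/CD101+ libraries, 1 below and 1 within the resident range of 36.4 to 144. Limk1, the kinase that inactivates cofilin, had 22, 10, 81 and 58 counts in resident libraries and 1 count over each subset. Its resident level was 12.6 times that of SiglecFhi/CD101+ (171 against 1 count, counting interval 2.22 to 499) and 10.6 times that of Siglec-Fint/CD101- libraries (1.88 to 423), intervals that depth leaves wide.

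Of the barbed-end cappers, Capza2, an alpha subunit of capping protein, was lowest in SiglecFhi/CD101+ libraries, at 56.5, 56.1, 40.3 and 59.3 CPM in resident libraries (338, 714, 575 and 892 counts), 119 and 29.8 in Siglec-Fint/CD101- libraries (163 and 48 counts) and 15.9 and 13.4 in SiglecFhi/CD101+ libraries (30 and 22 counts). No SiglecFhi/CD101+ value reached the others, and the log2 fold change between the subsets was -2.34 ± 0.98 (SE, edgeR adjusted p = 0.257). Capzb, the beta subunit, was 316 and 245 CPM in Siglec-Fint/CD101- libraries, above the resident range of 127 to 209.6, and 176 and 30.5 in SiglecFhi/CD101+ libraries. Capza1, the other alpha subunit, was 23.3 and 0 CPM in SiglecFhi/CD101+ libraries against 29.3 to 40.3 in resident libraries, and 46.5 and 11.8 in Siglec-Fint/CD101- libraries. Capg, a gelsolin-like capper of macrophages and granulocytes, was 22.4 to 62.3 CPM in resident libraries, 44.4 and 55.9 in the Siglec-Fint/CD101- pair and 3.71 and 66.5 in the SiglecFhi/CD101+ pair.

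Among bundlers and cross-linkers, Lsp1 (chr7:142460809-142494867) was low in both subsets. It had 2201, 7237, 2894 and 5747 counts in resident libraries, 197 and 67 in Siglec-Fint/CD101- libraries and 114 and 92 in SiglecFhi/CD101+ libraries, or 368, 569, 203 and 382, 143 and 41.6, and 60.4 and 56.1 CPM. No subset value reached the lowest resident one. The log2 fold change was -2.71 ± 0.65 (SE, edgeR adjusted p = 0.118) in SiglecFhi/CD101+ libraries, -2.04 ± 0.62 (SE, edgeR adjusted p = 0.288) in Siglec-Fint/CD101- libraries, and -2.37 ± 0.48 (SE, edgeR adjusted p = 0.0787) for their average; DESeq2 called the first and the last, with adjusted p = 0.0313 and 0.0196, where all alternatives ran from 0.00809 to 0.37 and from 0.000937 to 0.214.

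Lcp1, L-plastin, the leukocyte filament bundler, had 2993, 8547, 3118 and 8552 counts in resident libraries, 701 and 413 in Siglec-Fint/CD101- libraries and 745 and 228 in SiglecFhi/CD101+ libraries, or 500.2, 672, 219 and 569, 509.7 and 256.4, and 395 and 139 CPM, and the groups overlapped. Flna, filamin A, which cross-links filaments into networks, was 22.8 and 4.27 CPM in SiglecFhi/CD101+ libraries, below all others, which ranged from 44.0 to 90.6 in resident libraries and stood at 32.7 and 78.9 in Siglec-Fint/CD101- libraries. The alpha-actinins overlapped: Actn1 was 63.2, 137, 49.6 and 52.3 CPM in resident libraries, 50.9 and 36.0 in the Siglec-Fint/CD101- pair and 17.0 and 90.3 in the SiglecFhi/CD101+ pair, and Actn4 30.2, 37.4, 61.9 and 38.7, 21.8 and 91.9, and 88.5 and 45.7.

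Tropomyosins coat filaments and govern what binds them. Tpm3 was 158, 252, 188 and 209 CPM in resident libraries, 284 and 283 in Siglec-Fint/CD101- libraries and 175 and 239.7 in SiglecFhi/CD101+ libraries. Tpm4 was 78.7, 80.5, 60.4 and 87.0, 74.2 and 62.1, and 66.8 and 58.5. Both Siglec-Fint/CD101- values of Tpm3 lay above the resident ones, and Tpm4 overlapped between resident libraries and each subset.

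Linkers join filaments to the membrane and to adhesions. Msn, moesin, the main ERM linker of leukocytes, was 142, 71.8, 82.5 and 87.0 CPM in resident libraries (847, 913, 1177 and 1308 counts), 47.3 and 30.4 in Siglec-Fint/CD101- libraries (65 and 49 counts) and 68.9 and 31.1 in SiglecFhi/CD101+ libraries (130 and 51 counts). All 4 subset values lay below the resident ones, with -1.30 ± 0.74 (SE, edgeR adjusted p = 0.371) on the log2 scale in Siglec-Fint/CD101- libraries. Ezr, ezrin, overlapped, at 35.8 to 75.4 CPM in resident libraries, 5.82 and 45.3 in the Siglec-Fint/CD101- pair and 69.4 and 42.1 in the SiglecFhi/CD101+ pair. Tln1, talin, which activates integrins, was 160.4 to 201 CPM in resident libraries, 41.4 and 256.4 in the Siglec-Fint/CD101- pair and 118 and 165 in the SiglecFhi/CD101+ pair. Vcl, vinculin, which strengthens talin's hold on filaments, had 309, 159, 528 and 364 counts in resident libraries, 16 and 81 in the Siglec-Fint/CD101- pair and 0 and 27 in the SiglecFhi/CD101+ pair.

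Myosins move along actin or pull on it, and none passed in any comparison. Myo1e (chr9:70207350-70399766), a class I myosin that ties membrane to actin, had 406, 820, 392 and 615 counts in resident libraries, 164 and 184 in Siglec-Fint/CD101- libraries and 4 and 1 in SiglecFhi/CD101+ libraries, or 67.8, 64.5, 27.5 and 40.9, 119 and 114, and 2.12 and 0.61 CPM. The 3 groups did not overlap: Siglec-Fint/CD101- was highest and SiglecFhi/CD101+ near 0. Summed over groups, the resident level was 32.8 times the SiglecFhi/CD101+ level (2233 against 5 counts, counting interval 14.0 to 101) and the Siglec-Fint/CD101- level 82.2 times (348 against 5 counts, 34.9 to 255). Its log2 fold change was -5.16 ± 1.07 (SE, edgeR adjusted p = 0.11) against resident libraries and -6.38 ± 1.16 (SE, edgeR adjusted p = 0.106) between the subsets, the smallest p of any member in that comparison, and -1.97 ± 0.68 (SE, edgeR adjusted p = 0.137) for the averaged subsets. DESeq2 adjusted p-values were 8.57e-05, 3.19e-07 and 0.105, and over all alternatives the adjusted p ran from 8.57e-05 to 0.328, 3.19e-07 to 1, and 0.0451 to 0.304.

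Myo1g (chr11:6506548-6520965), a haematopoietic relative, had 986, 4064, 1167 and 2544 counts in resident libraries, 37 and 6 in Siglec-Fint/CD101- libraries and 12 and 86 in SiglecFhi/CD101+ libraries, or 165, 319, 81.8 and 169, 26.9 and 3.73, and 6.36 and 52.4 CPM. All subset values lay below the resident ones, although the libraries of each subset differed several-fold. The log2 fold change was -3.59 ± 1.06 (SE, edgeR adjusted p = 0.284) in Siglec-Fint/CD101- libraries, -2.65 ± 1.00 (SE, edgeR adjusted p = 0.236) in SiglecFhi/CD101+ libraries and -3.12 ± 0.77 (SE, edgeR adjusted p = 0.1) for the average, and DESeq2 adjusted p-values were 0.0434, 0.191 and 0.03. Over all alternatives the adjusted p ran from 0.0206 to 0.53, 0.0701 to 0.419, and 0.00123 to 0.214.

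Myo1f, the third class I gene, was 88.4, 154, 33.0 and 70.2 CPM in resident libraries (529, 1957, 471 and 1055 counts), 2.18 and 41.6 in Siglec-Fint/CD101- libraries (3 and 67 counts) and 28.1 and 22.6 in SiglecFhi/CD101+ libraries (53 and 37 counts). Of the Siglec-Fint/CD101- libraries 1 lay within the resident range, and the log2 fold change of that subset was -1.97 ± 1.07 (SE, edgeR adjusted p = 0.353). Myo9b, a single-headed myosin, had 44, 130, 76 and 127 counts in resident libraries, 0 and 25 in Siglec-Fint/CD101- libraries and none in SiglecFhi/CD101+ libraries. With the floor of 3 counts set for the whole SiglecFhi/CD101+ group, the resident Myo9b level was 9.23-fold and the Siglec-Fint/CD101- level 9.84-fold higher. From the observed 0 counts, the lower limits of the counting intervals were 7.47-fold and 7.43-fold. The edgeR adjusted p was 0.243 and 0.248. All 25 counts in the Siglec-Fint/CD101- pair came from 1 library.

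The conventional myosin is built of heavy and light chains. Myh9, the heavy chain of non-muscle myosin IIA that contracts the cell rear, had 969, 2220, 2579 and 2649 counts in resident libraries, 182 and 349 in Siglec-Fint/CD101- libraries and 167 and 167 in SiglecFhi/CD101+ libraries. Its CPM values were 162, 175, 181 and 176, then 132 and 217, then 88.5 and 102, so the SiglecFhi/CD101+ libraries were lowest without overlap. Myl6, the essential light chain, overlapped, at 1139, 959, 1404 and 1008 CPM in resident libraries, 1692 and 965 in the Siglec-Fint/CD101- pair and 836 and 985 in the SiglecFhi/CD101+ pair. Myl12b, a regulatory light chain, was 18.9, 24.1, 21.5 and 26.8, 29.8 and 21.1, and 7.42 and 11.6 CPM, again lowest in SiglecFhi/CD101+ libraries. Myl12a shares exonic bases on the same strand with a second gene model named Myl12b, which also had no counts, so a lack of counts does not show a lack of its RNA.

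Within pairs of related genes, the share of the pair's counts does not depend on how libraries are scaled. Fmnl2 took 31.9%, 19.2%, 49.3% and 29.7% of the Fmnl1 and Fmnl2 counts in resident libraries and 3.03% and 18.5% in Siglec-Fint/CD101- libraries, but 93.0% (exact 95% binomial interval 80.9 to 98.5) and 88.5% (69.8 to 97.6) in SiglecFhi/CD101+ libraries. Myo1e took 29.5% to 45.4% of the Myo1e and Myo1f counts in resident libraries, 98.2% and 73.3% in Siglec-Fint/CD101- libraries and 7.02% (1.95 to 17.0) and 2.63% (0.0666 to 13.8) in SiglecFhi/CD101+ libraries. The share of Myo1e separated all 3 groups in every library. For Fmnl2 both SiglecFhi/CD101+ libraries stood apart from all others, but Siglec-Fint/CD101- replicate 2 (interval 11.96 to 26.6) and resident replicate 4 (17.9 to 20.6) differed by less than counting error.

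Other pairs moved less or split within a subset. Tmsb10 took 11.4% to 16.4% of the Tmsb10 and Tmsb4x counts in resident libraries, 23.1% and 25.8% in Siglec-Fint/CD101- libraries and 16.1% and 17.4% in SiglecFhi/CD101+ libraries. Actg1 took 14.8% to 32.0% of actin counts in resident libraries, 15.9% and 26.3% in Siglec-Fint/CD101- libraries and 24.3% and 40.0% in SiglecFhi/CD101+ libraries. Coro1b held 37.5% to 44.0% of the Coro1a and Coro1b counts in resident libraries and 39.2% and 41.0% in Siglec-Fint/CD101- libraries, against 30% and 0.741% in SiglecFhi/CD101+ libraries. Arpc1a, the other p40 form, took 8.51% to 23.0% of the Arpc1a and Arpc1b counts in resident libraries but 1.83% and 46.4% in the Siglec-Fint/CD101- pair and 2.74% and 36.4% in the 2 SiglecFhi/CD101+ libraries, so it differed more within each subset than between them.

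**Figure D4:**
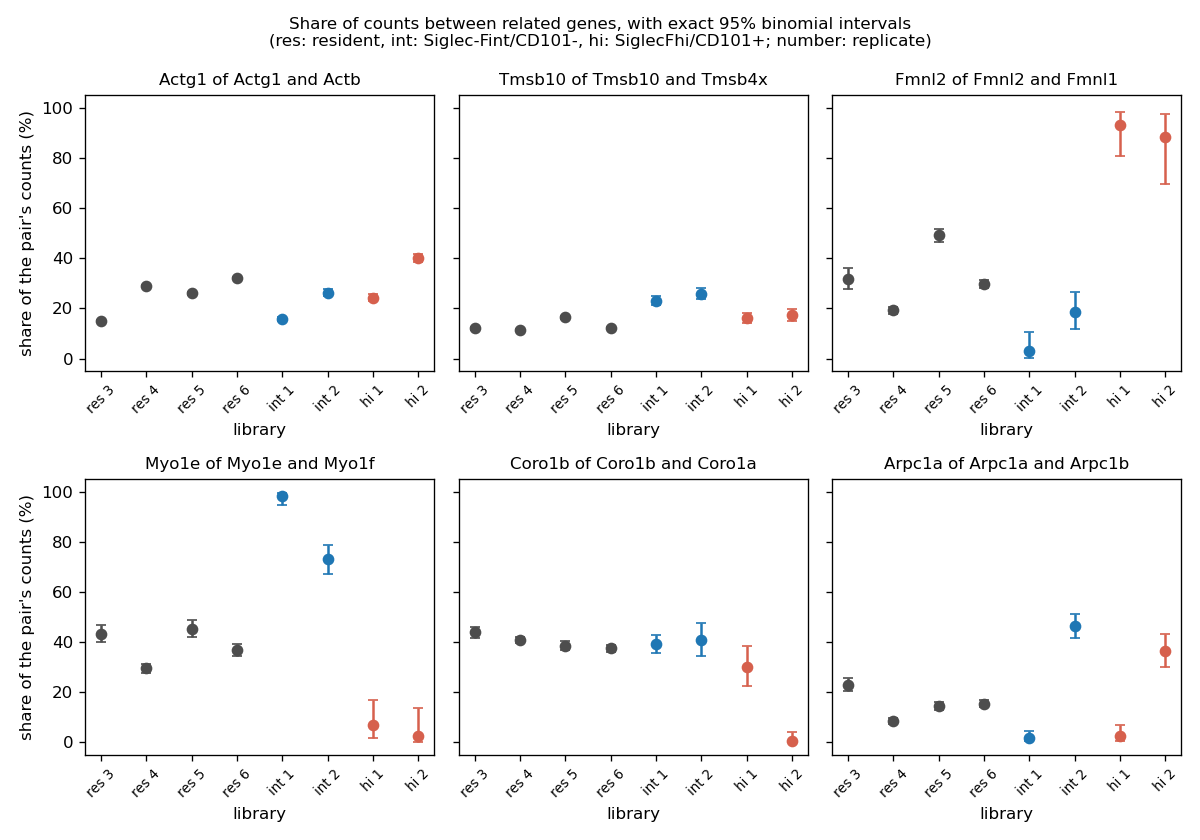
Share of a pair's counts (vertical axis, per cent) held by the first gene in each of the 8 libraries (horizontal axis; res resident, int Siglec-Fint/CD101-, hi SiglecFhi/CD101+, with the replicate number), with exact 95% binomial intervals, which cover counting error only. Fmnl2 holds 93.0% and 88.5% of its pair in SiglecFhi/CD101+ libraries against at most 49.3% elsewhere, and Arpc1a splits both subsets.

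Agreement between libraries bounds what these values can show. Over all 55 members, Myl12a at 0 included, the Spearman rank correlation of CPM between 2 libraries was 0.861 to 0.957 among resident libraries, 0.766 for the pair of Siglec-Fint/CD101- libraries and 0.727 for the SiglecFhi/CD101+ pair. It was 0.736 to 0.805 between resident and Siglec-Fint/CD101- libraries, 0.719 to 0.825 between resident and SiglecFhi/CD101+ libraries and 0.673 to 0.737 between the subsets; these are descriptions across genes, which share each library's depth. The highest and lowest library differed by more than 5-fold, after adding 1 CPM, for 1 of 54 members over 4 resident libraries, 15 over 2 Siglec-Fint/CD101- libraries and 12 over 2 SiglecFhi/CD101+ libraries. The widest was Coro1c, at 84.2-fold within SiglecFhi/CD101+. In Siglec-Fint/CD101- libraries Arpc4, Was, Wipf1, Myo9b, Evl and Limk1 had no counts in 1 of the 2 libraries, and in SiglecFhi/CD101+ libraries Coro1c, Arpc4, Capza1, Vcl and Limk1 did.

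Many actin cytoskeleton genes are targets of serum response factor, which binds the CArG box (CC, then 6 bases of A or T, then GG) and reads the pool of free actin through its MRTF partners. RefSeq promoter windows (GRCm38.p6, 250 bases before to 50 after the start) were matched by symbol for 50 members, in 63 windows. A CArG box on either strand occurred in 5 of the 63 windows (7.94%), beside 1.63% of all 32851 windows, and in 5 of 50 genes (10%), beside 1.81% of genes. The matches are printed because they are the sequence feature these members share; each runs 5' to 3' on the gene's strand and stops before the start, with the match in capitals.
Actg1, chr11:120348551-120348610, minus strand: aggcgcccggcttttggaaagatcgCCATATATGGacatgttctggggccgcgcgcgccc
Vcl, chr14:20929148-20929205, plus strand: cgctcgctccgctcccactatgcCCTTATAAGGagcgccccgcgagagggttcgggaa
Myl6, chr10:128493025-128493084, minus strand: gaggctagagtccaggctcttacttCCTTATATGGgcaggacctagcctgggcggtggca
Myo1e, chr9:70207293-70207349, plus strand: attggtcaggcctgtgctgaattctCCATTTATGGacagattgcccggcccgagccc
Arpc4, chr6:113377863-113377897, plus strand: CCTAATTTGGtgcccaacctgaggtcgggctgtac
The boxes begin 90 bases before the start in Actg1, 227 in Vcl, 50 in Myl6, 32 in Myo1e and 250 in Arpc4. The 5 genes did not share a pattern across the libraries: Actg1 and Myl6 overlapped between the groups while Myo1e separated all 3. A match is a description of letters and no evidence of binding, and 5 members, Actb, Coro1b, Diaph1, Lsp1 and Twf2, had no window in the table.

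Of 25 adaptors and actin binders that are no members, 0 passed by edgeR in any comparison, with medians of -0.90, -0.36, -0.86 and -0.42 in the order used above. The smallest p-values for the averaged subsets were those of Swap70, which binds filaments and Rac, at -3.03 ± 1.24 (SE, edgeR adjusted p = 0.174), Fermt3, kindlin-3, which activates integrins, at -2.45 ± 1.00 (SE, edgeR adjusted p = 0.174), and Zyx, zyxin of focal adhesions, at -1.71 ± 0.71 (SE, edgeR adjusted p = 0.175). Swap70 had 177, 267, 267 and 235 counts in resident libraries, 31 and 1 in the Siglec-Fint/CD101- pair and 1 and 1 in the SiglecFhi/CD101+ pair.

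Markers of other cells were present in every group, and several of these cells carry the same cytoskeletal genes. Smooth muscle and myofibroblast markers (7 genes, with Acta2 the most counted) summed to 51.6 to 156 CPM in resident libraries, 25.4 and 348 in Siglec-Fint/CD101- libraries and 109 and 162 in SiglecFhi/CD101+ libraries, and Cnn1 was at 0 in 6 of the 8. Macrophage markers (8 genes) summed to 404 to 841, then 1143 and 333, then 287 and 369.6 CPM, and dendritic cell markers (7 genes) to 123 to 178, then 168 and 197, then 138 and 44.5. Endothelial and fibroblast markers (9 genes) summed to 176 to 1017 CPM in resident libraries and 683 to 971 in the 4 subset libraries. B and plasma cell markers (6 genes) did not overlap, at 32.8 to 147 CPM in resident libraries against 351, 165, 322 and 165 in the subset libraries. Epithelial markers (8 genes) had the highest sums, 985 to 13118 CPM in resident libraries, then 3869.5 and 7200.5, then 4512 and 4127. Red cell and platelet markers (8 genes) reached 995 to 9794 CPM, then 7679 and 2692, then 5589 and 3728. Neutrophil markers (8 genes) stood at 139 to 474, then 593 and 1506, then 263 and 1056 CPM, and T and NK cell markers (8 genes) at 10.5 to 48.4, then 127 and 4.35, then 292 and 64.6. The eosinophil markers themselves summed to 184 to 429, then 164 and 295, then 148 and 449 CPM. The part of these cells, of the mitochondrial share and of depth in the values of the actin cytoskeleton genes was not tested.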

How the data were processed

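The authors deposited raw counts for the genes of each of the 8 CEL-Seq libraries (Illumina NextSeq 550); the values are whole numbers and their totals are unequal (1513517 to 11583550). Aligners and counters named in the submitters' processing notes are TopHat2 2.1.0 with Bowtie2 2.2.6 and HTSeq 0.6.1, beside FastQC 0.11.5, cutadapt 1.10, Trim Galore and DESeq2 1.28.0. Build, annotation, strand setting and treatment of molecular identifiers: not given in the sources used here. Reads near transcript ends from overlapping genes may therefore be shared or lost. In exons, 21 members are overlapped by a gene on the opposite strand and 5 share bases with one on the same strand. In 10 members, an exon of such a gene reaches the last 500 genomic bases of the member (GENCODE, GRCm38). The deposited tables also carry letters per group that the labels do not explain, so groups rest on sample titles alone.

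Identifiers matched a symbol for 54409 of 54446 rows. The tests used edgeR 4.0.16 in R 4.3.3 (filterByExpr, TMM, 1 group-means model over all 8 libraries, robust quasi-likelihood fits, two-sided tests, Benjamini-Hochberg adjustment over 11828 genes, adjusted p under 0.05). The SE is the log2 fold change divided by the root of the F statistic. A floor is 3 counts over a group, and counting and binomial intervals are exact at 95%. A count of 3 in 1 library equals 0.199 to 0.501 CPM in resident and 1.59 to 2.18 CPM in subset libraries. The edgeR fit of SiglecFhi/CD101+ against resident libraries was also run on simulated counts, with changes set only into genes above the median level. Its outcome is not given here, so it bears on none of the results above.

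The members, the roles, the lists and the tests were chosen with earlier results of these data known. Fold changes with errors are given for the 10 members with the smallest p in each comparison, and genes that are no member are the 3 with the smallest p of each pathway list; 1 such list is not reported here. Other member values are CPM or counts per library. Alternatives were RLE factors, library totals, DESeq2 1.42.0, limma-voom 3.58.1, other filters, glmTreat, no mitochondrial genes, thinning, a replicate block, the compared groups alone, and the omission of single libraries.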

Additional observations from a re-analysis of the deposited data

Results flagged for a closer look

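In 3 of 54 members with counts, 1 of the 4 resident libraries stood far from the other 3 by Dixon's gap criterion, which chance meets in about 1 of 20 groups. Diaph1, a formin, had 69.5 CPM in resident replicate 3, where the other 3 libraries lay between 23.3 and 26.3. Actn1, an alpha-actinin, had 137 CPM in resident replicate 4, where the next value was 63.2. Capza2, an alpha subunit of capping protein, had 40.3 CPM in resident replicate 5, below the other values of 56.1 to 59.3.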

How the results depend on the processing

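Over the alternatives, 678 of 715 values of the 40 named log2 fold changes kept their direction and stayed short of the threshold, 37 passed it and 0 reversed; Myo9b between the subsets gave no value without Siglec-Fint/CD101- replicate 2, which holds all its counts. DESeq2 called 4, 1, 3 and 4 members lower (in the order SiglecFhi/CD101+ against resident, Siglec-Fint/CD101- against resident, averaged, between subsets), with member medians of -0.41, 0.10, -0.24 and -0.42, and left 1, 1, 0 and 1 members without an adjusted p. RLE factors gave medians of -0.41, 0.10 and -0.24 against resident libraries. Library totals alone gave -1.55, -1.20 and -1.35 and called 1 member lower in SiglecFhi/CD101+ (7 of 11828 genes) and 7 in the averaged comparison (773 genes). Without a filter 5, 1, 3 and 2 members were called lower, beside 370, 136, 201 and 85 of 21197 genes. Counts thinned to the smallest library gave a median of -0.51 in SiglecFhi/CD101+ against resident libraries. Between the subsets they gave 1 call among 53 members tested, Myo1e, beside 6 of 9080 genes.

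Leaving out 1 library at a time, called members ranged from 0 to 3 in SiglecFhi/CD101+ against resident libraries, and 3 were called without either Siglec-Fint/CD101- library, beside 131 and 133 genes. The median ranged from -1.24 to -0.67 there, lowest without SiglecFhi/CD101+ replicate 2, and from -0.88 to -0.14 in Siglec-Fint/CD101- against resident libraries, lowest without Siglec-Fint/CD101- replicate 1. A lone library of a subset was assumed to vary like the other groups. In an alternative added after the values were seen, members lying wholly below the other group numbered 18, 8, 4 and 16 with RLE factors (22.8%, 26.1%, 9.54% and 11.1% of genes) and 35, 27, 19 and 10 with library totals (35.1%, 39.6%, 20.5% and 9.69% of genes). Members lying wholly above numbered 3, 7, 0 and 6 with RLE factors (9.92%, 6.62%, 1.32% and 16.6% of genes) and 0, 0, 0 and 7 with library totals (3.58%, 1.12%, 0.262% and 17.1%). Leaving out 1 library moved 15 of the 40 named log2 fold changes by over 1.5 times. Between the subsets, Actb (-0.39), Capza2 (-1.07), Coro1a (-0.40) and Fmnl3 (-5.23) were nearer 0 without Siglec-Fint/CD101- replicate 1. The size of the Fmnl3 value is not measured, since SiglecFhi/CD101+ libraries have no counts of it. In Siglec-Fint/CD101- against resident libraries, Lsp1 (-3.25) and Myo1g (-5.68) were farther from 0 and Myo1f (-1.11) and Wipf1 (-1.18) nearer without replicate 1, and Fmnl2 (-5.04) and Myo1f (-5.32) farther without replicate 2. In SiglecFhi/CD101+ libraries Coro1b was -7.76 against resident libraries and -7.75 between the subsets without replicate 1, and Myo1g -4.95 against resident libraries without replicate 2. Evl and Wipf1 without Siglec-Fint/CD101- replicate 2, and Was without replicate 1, rest on a library with no counts of the gene. The cause of these shifts was not tested.

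The replicate block could be fitted only between the subsets, over 2 pairs of equal number: 0 members were called and the median was -0.36. This fit tested 49 members among 5490 genes and called 4 genes, so its median covers fewer members than the main one. The deviations of same-numbered libraries correlated at 0.00693 over 11828 genes. With 2 libraries per subset, this value cannot show whether the numbers pair them. Subset libraries have 444902 to 552121 counts outside the mitochondrial genome, which leaves genes of a few counts with wide intervals.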
